A study of Mus musculus with 24 samples.

Results

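10 genes that differed between heterozygous and control mice in the cerebellum at 2 and at 5 months of age were examined: AI593442, Gpr26, Nrk, Chst8, Clstn2, Igfbp5, Pcdh20, Nlrp10, Gdf11 and Opn3. These 10 of the 46078 genes in each count table were selected on the measured cerebellar difference between genotypes at both ages. Their cerebellar values are therefore a description, and tests are given for the cortex, the spinal cord and the change with age.

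All 10 are protein-coding, on 6 chromosomes of GRCm38. The 3 higher genes were AI593442 (ENSMUSG00000078307, chr9:52673042-52679780), Gpr26 (ENSMUSG00000040125, chr7:131966460-131994405) and Nrk (ENSMUSG00000052854, chrX:138914430-139010532). The lower genes included Chst8 (ENSMUSG00000060402, chr7:34674468-34812711), Nlrp10 (ENSMUSG00000049709, chr7:108921852-108930178) and Clstn2 (ENSMUSG00000032452, chr9:97444395-98033181). Igfbp5 (ENSMUSG00000026185, chr1:72857932-72874884) and Opn3 (ENSMUSG00000026525, chr1:175662421-175692776) lie on chromosome 1. Gdf11 (ENSMUSG00000025352) lies at chr10:128882295-128891718 and Pcdh20 (ENSMUSG00000050505) at chr14:88464743-88471396.

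The mice carried GFP-PR28, a proline-arginine dipeptide repeat fused to green fluorescent protein, in the Rosa26 locus behind a floxed stop, on a C57BL/6 background. Heterozygous mice (labelled OE) were GFP-PR28 flox/+; Thy1-Cre+/-, and their control littermates (labelled WT) were GFP-PR28 flox/+; Thy1-Cre-/-. Control mice thus held the same floxed allele without Cre, and no group carried Cre alone. Cerebellum was taken at 2 and 5 months, and cortex and spinal cord at 6 months, with 3 mice per genotype in each of the 4 comparisons. The Thy1 promoter drove Cre in neurons. In the study's staining of the cerebellum Cre was abundant in granular and Purkinje cell layers but GFP-PR28 lay mainly in the latter, so whole-tissue RNA also came from many cells with little of the protein.

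Poly-PR is among the dipeptide repeat proteins made from the expanded C9orf72 repeat that underlies inherited forms of amyotrophic lateral sclerosis and frontotemporal dementia. Purkinje cells are the only output neurons of the cerebellar cortex, and granule cells are its most numerous neurons. Apart from AI593442, whose role is unclear, the genes encode secreted ligands and binding proteins, cell surface receptors and adhesion proteins, intracellular or Golgi enzymes, and an NLR protein. They do not form 1 pathway.

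All 24 libraries were used, with total counts between 12835400 and 25490124. Levels are given in CPM, counts scaled to library size and normalised within each count table, and the cerebellum table and the cortex and spinal cord table were normalised separately. The cerebellum libraries held the markers of their tissue: the 10 granule cell markers summed to 7078 ± 125 CPM (SD, n = 3) in control mice at 2 months, against 624 ± 99.2 CPM in the control cortex. Of the 8 spinal cord markers, Slc18a3, Hoxc8, Hoxd10 and Hoxa9 had no count in any cerebellum library, and the list summed to 344 ± 6.55 CPM in the control spinal cord.

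A pair of libraries stood apart from the rest. Control mouse 1 at 2 months had an SD of log2 deviations from the gene means of 0.368, against 0.158 to 0.180 in the other 5 libraries of that age, and its deviations rose with GC content (Spearman rho 0.442 across genes). Control mouse 1 of the cortex had an SD of 0.415, against 0.207 to 0.237 in the other 5 cortex libraries. The log2 fold changes of the 10 genes in those comparisons are given with and without them.

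In the cerebellum, 3 of the 10 genes were higher in heterozygous mice at both ages and 7 were lower at both ages. The groups did not overlap for any of the 10 genes at 2 months, where this held for 14.2% of 16208 genes, or at 5 months, where it held for 24.8% of 16481 genes. These counts follow from how the genes were chosen and are not evidence for them.

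**Figure D1:**
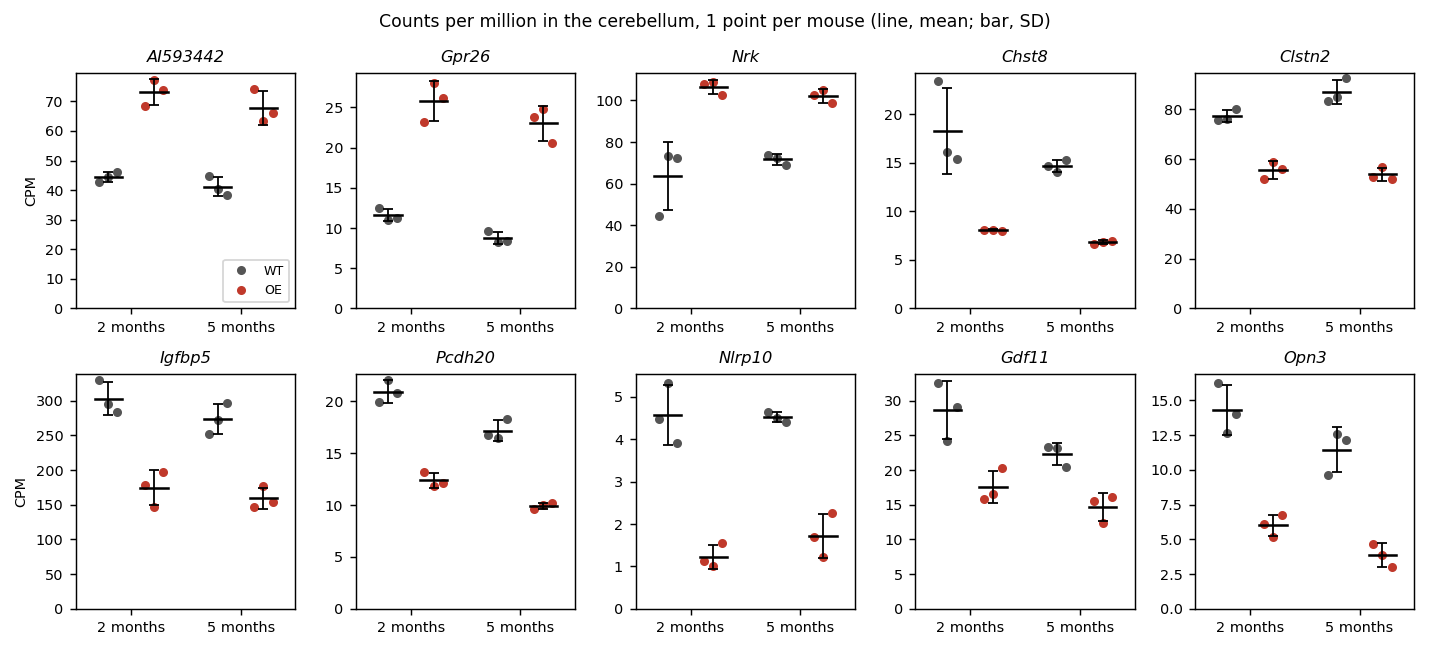
CPM (y axis, from 0) of the 10 genes in the cerebellum of control (WT, grey) and heterozygous (OE, red) mice at 2 and 5 months, 1 point per mouse, with the mean (line) and SD (bar) of 3 mice. Heterozygous mice lie above control mice for AI593442, Gpr26 and Nrk and below them for the other 7 genes, without overlap at either age.

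Gpr26 encodes an orphan G protein-coupled receptor of the brain. At 2 months it measured 12.4, 11.0 and 11.3 CPM in control mice and 23.2, 28.1 and 26.1 CPM in heterozygous mice. At 5 months it measured 9.62, 8.26 and 8.38 CPM in control mice and 23.8, 24.8 and 20.5 CPM in heterozygous mice. The lowest heterozygous mouse was thus well above the highest control mouse at each age, and the log2 fold change was 1.16 ± 0.11 (SE) at 2 months and 1.39 ± 0.11 at 5 months. Gpr26 lies on chromosome 7 within the span of Fgfr2 on the opposite strand, and their exons do not overlap.

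AI593442 is a protein-coding gene on chromosome 9 that is known mainly by its sequence. At 2 months it measured 42.8, 44.3 and 46.1 CPM in control mice and 68.5, 77.2 and 73.8 CPM in heterozygous mice. At 5 months the values were 44.7, 40.5 and 38.2 CPM in control mice and 74.2, 63.2 and 66.0 CPM in heterozygous mice. The size of the difference was nearly the same at both ages, with log2 fold changes of 0.72 ± 0.08 (SE) and 0.72 ± 0.07. With length and GC entered as an offset they were 0.61 at 2 months and 0.72 at 5 months.

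Nrk, on the X chromosome, encodes a kinase of the germinal centre kinase family. At 2 months it measured 44.6, 73.3 and 72.4 CPM in control mice and 108, 109 and 103 CPM in heterozygous mice. Control mouse 1, the library that stood apart, was the low value. The log2 fold change at 2 months was 0.75 ± 0.18 (SE) with this mouse and 0.55 ± 0.05 without it. At 5 months Nrk measured 74.0, 72.5 and 68.8 CPM in control mice and 102, 105 and 98.8 CPM in heterozygous mice, a log2 fold change of 0.51 ± 0.05.

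Among the 7 lower genes, Opn3 and Nlrp10 had the largest differences. Opn3 encodes encephalopsin, an opsin found outside the eye. It measured 16.3, 12.7 and 14.0 CPM in control mice and 6.11, 5.17 and 6.72 CPM in heterozygous mice at 2 months. At 5 months it measured 9.62, 12.6 and 12.2 CPM in control mice and 4.70, 3.89 and 3.03 CPM in heterozygous mice. All heterozygous mice were below all control mice, with log2 fold changes of -1.24 ± 0.15 (SE) at 2 months, -1.14 ± 0.14 without control mouse 1, and -1.57 ± 0.17 at 5 months. Opn3 shares exon sequence with Chml on the same strand of chromosome 1, so its counts are uncertain.

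Nlrp10 encodes an NLR protein that, unlike its relatives, lacks leucine-rich repeats. It was counted 51 to 80 times per library in control mice and 13 to 24 times in heterozygous mice at 2 months. In CPM the control mice measured 4.48, 5.33 and 3.92 and the heterozygous mice 1.13, 1.00 and 1.55. At 5 months the values were 4.64, 4.51 and 4.41 CPM against 1.68, 1.23 and 2.26 CPM. The groups were apart at both ages, but few reads were counted, and the log2 fold changes of -1.88 ± 0.24 (SE) and -1.38 ± 0.22 had the largest errors among the 10 genes at both ages.

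Chst8 encodes a Golgi enzyme that adds sulfate to N-acetylgalactosamine on glycoproteins. At 2 months it measured 23.4, 16.1 and 15.4 CPM in control mice and 8.12, 8.10 and 8.01 CPM in heterozygous mice. The high control value was again mouse 1, and the log2 fold change was -1.17 ± 0.17 (SE) with it and -0.96 ± 0.12 without it. At 5 months the values were 14.7, 14.0 and 15.3 CPM against 6.59, 6.87 and 6.96 CPM, a log2 fold change of -1.10 ± 0.12.

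Secreted proteins were represented by Igfbp5, which binds insulin-like growth factors, and Gdf11, a ligand of the TGF-beta family that signals through activin receptors. Igfbp5 measured 330, 296 and 284 CPM in control mice and 179, 147 and 198 CPM in heterozygous mice at 2 months. Its 5-month values were 253, 272 and 296 CPM against 147, 177 and 154 CPM. The log2 fold change was -0.79 ± 0.12 (SE) at 2 months, -0.73 ± 0.15 without control mouse 1, and -0.78 ± 0.08 at 5 months, with heterozygous mice lowest throughout.

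Gdf11 measured 32.6, 24.2 and 29.1 CPM in control mice and 15.9, 16.5 and 20.2 CPM in heterozygous mice at 2 months. At 5 months it measured 23.3, 23.1 and 20.4 CPM against 15.5, 12.3 and 16.1 CPM. All heterozygous mice were below all control mice at both ages, and the log2 fold changes were -0.70 ± 0.14 (SE) and -0.60 ± 0.10. Without control mouse 1 the 2-month value was -0.60 ± 0.10.

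Adhesion proteins were represented by Clstn2, a calsyntenin of the postsynaptic membrane, and Pcdh20, a protocadherin. Clstn2 measured 75.6, 76.0 and 80.0 CPM in control mice and 52.0, 59.1 and 55.9 CPM in heterozygous mice at 2 months. Its 5-month values were 83.6, 85.0 and 92.5 CPM against 52.6, 57.0 and 52.2 CPM. The log2 fold changes were -0.47 ± 0.08 (SE) and -0.69 ± 0.06. Clstn2 overlaps Gm37661 on its own strand and 4921534H16Rik on the other strand, without shared exon sequence.

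Pcdh20 measured 19.9, 22.1 and 20.8 CPM in control mice and 13.2, 11.8 and 12.1 CPM in heterozygous mice at 2 months. At 5 months it measured 16.7, 16.5 and 18.3 CPM against 9.61, 9.98 and 10.2 CPM. Both groups were tight and apart, with log2 fold changes of -0.76 ± 0.10 (SE) and -0.79 ± 0.10.

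Calls required an adjusted p below 0.05 together with a log2 difference larger than 0.2 in either direction. At 5 months edgeR called 839 of 16481 genes (5.09%), 391 higher and 448 lower, and the 10 genes were among them. The split moved with the processing, to 262 higher and 404 lower with DESeq2, to 591 and 568 with no filter on low counts, and to 305 and 532 once length and GC entered as an offset. The count was 433 without control mouse 11 and 550 without heterozygous mouse 12, and the 10 genes were called in both fits. At 2 months edgeR called 0 of 16208 genes (0.0%), with 836 at an unadjusted p under 0.05. DESeq2 called 44 genes at 2 months (0.271%) and 666 at 5 months (4.68% of 14242), and the 10 genes were called at both ages. Without control mouse 1, edgeR called 362 genes at 2 months (2.19%), 9 of the 10 genes among them and Igfbp5 not. Because the genes were chosen on these contrasts, nothing is read from these counts.

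DESeq2 called 39 genes at both ages in the same direction, the 10 genes and 29 others. Without control mouse 1 the log2 fold changes of the 10 genes at 2 months kept their sign. They were then 1.21 for Gpr26, 0.69 for AI593442, -0.49 for Clstn2, -0.79 for Pcdh20 and -1.90 for Nlrp10, and those of the other 5 stand beside their values.

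On a scale that allows levels to be compared between genes, CPM per kilobase of exon (RPKM), Igfbp5 was the most abundant of the 10 genes in the control cerebellum at 5 months, at 45.5 ± 3.62 RPKM (SD, n = 3). Clstn2 followed at 15.3 ± 0.841, then Nrk at 7.79 ± 0.287 and AI593442 at 7.07 ± 0.564. Opn3 measured 5.99 ± 0.839 and Gdf11 5.48 ± 0.394, and Pcdh20 and Chst8 measured 3.13 ± 0.178 and 2.46 ± 0.103. Nlrp10 and Gpr26 were lowest at 1.00 ± 0.0259 and 0.756 ± 0.0650. From Nrk to Gdf11 each gene was within the spread of the next 1 in this order, and the other neighbours differed beyond their spread.

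Markers of cell types were counted beside these values, with 5.09% of all tested genes called by edgeR at 5 months. At 5 months 5 of the 9 tested microglia markers were called higher in heterozygous mice and 0 lower, with a median log2 fold change of 0.78 against 0.009 over all genes. The 10 microglia markers summed to 88.9, 94.3 and 89.5 CPM in control mice and 133, 113 and 149 CPM in heterozygous mice. Csf1r had the most counts of them, and per length C1qa was highest at 11.5 RPKM in control and 22.8 RPKM in heterozygous mice. At 2 months they summed to 109, 83.8 and 85.4 CPM against 98.4, 102 and 91.1 CPM, and 0 of 9 were called by edgeR, with 0 at an unadjusted p under 0.05. The groups overlapped through control mouse 1 alone, and without it all heterozygous mice were above the control mice.

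Of the 10 granule cell markers, Gabra6, Etv1, Cadps2 and Rbfox3 were called lower at 5 months and 0 were called higher, with a median log2 fold change of -0.12. Rbfox3 is not particular to granule cells, since it averaged 416 CPM in the control cortex. Of the 11 Purkinje cell markers, Pcp2 was called higher and Ppp1r17 lower, and the median was 0.08, with 6 of 11 at an unadjusted p under 0.05. The Purkinje cell list, led by Pvalb in RPKM, summed to 9241 ± 80.2 CPM (SD, n = 3) in control mice and 9286 ± 287 CPM in heterozygous mice, a difference smaller than the spread. At 2 months it summed to 10310, 9416 and 9268 CPM in control mice and 9193, 9022 and 9117 CPM in heterozygous mice, with control mouse 1 highest, 0 of 11 called and 1 at an unadjusted p under 0.05. Of the other lists at 5 months, Aqp4 and Gdf10 of 9 astrocyte and Bergmann glia markers, Nxph1 of 8 interneuron markers, Lum of 4 fibroblast markers, and Ppp1r1b and Rgs9 of 5 tested striatal markers were called higher. Slc6a5 of the interneuron markers was called lower. At an unadjusted p under 0.05 there were 8 of 9 astrocyte, 3 of 8 interneuron, 1 of 4 fibroblast and 2 of 5 striatal markers, and 20.3% of all tested genes. Of the 9 astrocyte markers 6 had positive and 3 had negative log2 fold changes. EdgeR called 0 genes of the unipolar brush cell, oligodendrocyte, endothelial, choroid plexus and cortical neuron lists, with 2, 3, 0, 0 and 2 at an unadjusted p under 0.05. The choroid plexus list had 5 of 5 positive log2 fold changes (median 0.54). It summed to 1925, 646 and 1106 CPM in control mice and 1795, 1918 and 2047 CPM in heterozygous mice, with overlap. The oligodendrocyte list summed to 4243 to 4465 CPM in control and 3920 to 4040 CPM in heterozygous mice, without overlap. Sums also did not overlap for the unipolar brush cell list (942 to 957 CPM in control, 850 to 907 CPM in heterozygous mice), the interneuron list (598 to 629 and 639 to 668 CPM) and the striatal list (176 to 186 and 211 to 232 CPM). Nearly all of the striatal sum was Ppp1r1b, with means of 174 CPM in control and 210 CPM in heterozygous mice. In the cerebellum this sum thus describes 1 gene and not striatal neurons. At 2 months edgeR called 0 genes of any marker list. The astrocyte list then summed to 3588 to 4127 CPM in control and 3465 to 3524 CPM in heterozygous mice, and the cortical excitatory neuron list to 590 to 717 and 495 to 536 CPM, with 2 of 9 and 2 of 6 genes at an unadjusted p under 0.05. This also held for 2 of 4 unipolar brush cell markers (median log2 fold change -0.17), whose sums overlapped, and for 5.16% of all tested genes. Most of the cortical excitatory neuron sum was Slc17a7, with means of 522 CPM in control and 425 CPM in heterozygous mice at 2 months. In the cerebellum that list name does not name the cells the counts came from. The part of any of these cell types in the differences of the 10 genes was not tested, and in bulk tissue fewer cells of a type cannot be told apart from less RNA per cell.

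Relatives and partners of the 10 genes were counted from 8 family and pathway lists, with the 10 genes left out. Of 14 tested genes of the insulin-like growth factor system at 5 months, 2 were called higher and 1 lower, against 5.09% of all tested genes called. At an unadjusted p under 0.05 there were 3 of the 14, against 20.3% of all tested genes. The called genes were Igfbp6 (log2 fold change 0.37 ± 0.11, SE), Stc2 (1.08 ± 0.31) and Pappa (-0.84 ± 0.13). Pappa encodes a protease that cleaves binding proteins of these growth factors, Igfbp5 among them, and Stc2 encodes an inhibitor of that protease. In edgeR the adjusted p was 0.0434 for Igfbp6, 0.0413 for Stc2 and 6.65e-04 for Pappa. The median of the 14 genes was -0.05, against 0.009 over all genes. Igfbp2, of the 14 the gene with the highest RPKM, was not called by edgeR (0.51 ± 0.31).

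Of 17 tested genes of the GDF11 and activin pathway, 2 were called higher and 0 lower, against 5.09% of all tested genes called. At an unadjusted p under 0.05 there were 5 of the 17, against 20.3% of all tested genes. Inhbb, which encodes an activin subunit, had a log2 fold change of 0.44 ± 0.12 (SE), with an adjusted p of 0.0282 by edgeR. Wfikkn2, which encodes a secreted protein that binds GDF11, had a log2 fold change of 0.80 ± 0.20, with an adjusted p of 0.0171 by edgeR. Both were higher in 3 of 3 heterozygous mice than in any control mouse, and the groups did not overlap for 24.8% of all tested genes. Gdf11 itself, chosen on this contrast, was lower. The gene of the list with the highest RPKM at 5 months, Bmp1, had a log2 fold change of 0.01 ± 0.04.

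In the remaining 6 lists edgeR called no relative at 5 months: 0 of 2 calsyntenins, 0 of 9 delta protocadherins, 0 of 8 genes of N-acetylgalactosamine sulfation, 0 of 2 opsins, 0 of 8 inflammasome genes and 0 of 3 kinases of the Nrk family. At an unadjusted p under 0.05 there were 0, 2, 1, 0, 0 and 1 genes in the same order, against 20.3% of all tested genes. Clstn1, the calsyntenin with the highest RPKM, averaged 784 CPM in the heterozygous group and 825 CPM in the control group (log2 fold change -0.07 ± 0.04, SE). Pcdh9, B4galnt1 and Il18 had the highest RPKM of the protocadherin, sulfation and inflammasome lists, with log2 fold changes of -0.10 ± 0.04, 0.04 ± 0.06 and 0.16 ± 0.17, and Opn3 itself had the highest of the opsins. Mink1, the kinase with the highest RPKM, had a log2 fold change of -0.13 ± 0.04 with an adjusted p of 0.0575 by edgeR. At 2 months edgeR called 0 relatives in the 8 lists. An unadjusted p under 0.05 was found for 1, in the insulin-like growth factor list, against 5.16% of all tested genes.

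**Figure D2:**
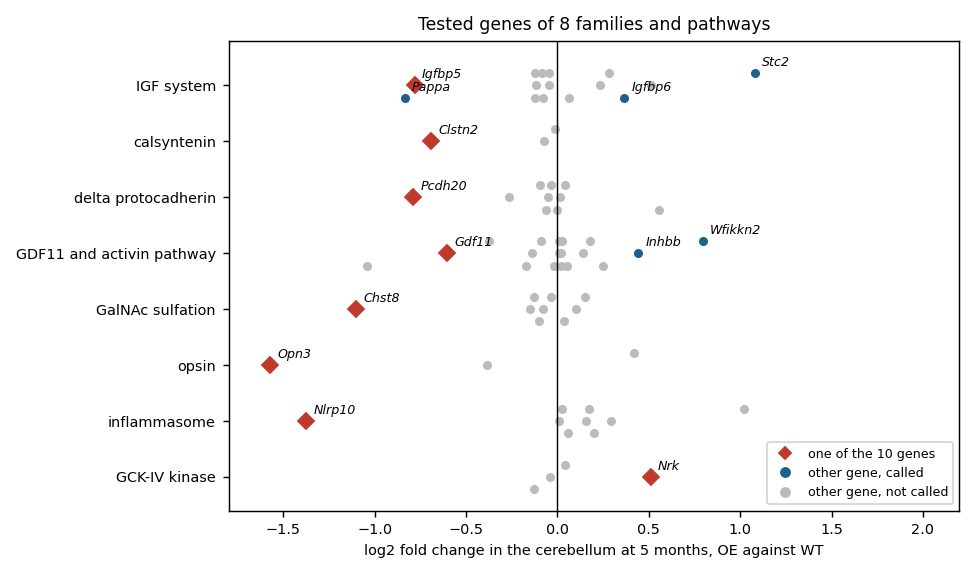
Log2 fold change in the cerebellum at 5 months, heterozygous (OE) against control (WT) mice (x axis), of every tested gene of 8 family and pathway lists (y axis). Diamonds are those of the 10 genes that belong to a list, which AI593442 and Gpr26 do not, circles are relatives, and blue circles are the 5 relatives called by edgeR, of which Pappa is the only lower one.

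The expression of the genes over the 12 cerebellum libraries was also compared with that of 16051 genes tested at both ages, as Pearson's r of log2(CPM + 0.5). These correlations describe libraries that share genotype groups, ages and sequencing, and r is expected to be high for genes chosen on genotype. Gpr26 and AI593442 were each other's closest gene (r = 0.974, Spearman's rho = 0.888). Chst8 was closest to Rgs8 (r = 0.984), Igfbp5 to Syt7 (r = 0.976) and Pcdh20 to Kcna1 (r = 0.977). Opn3 was closest to Dpy19l3 (r = 0.968), Nrk to Sema3a (r = 0.965), Nlrp10 to Tmtc1 (r = 0.953), Clstn2 to Itsn1 (r = 0.952) and Gdf11 to Slc6a17 (r = 0.944).

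Promoter windows are shown for genes on both sides of the genotype difference. Windows from RefSeq (build GRCm38.p6), reaching from 250 bases before to 50 bases after the start, matched 8 of the 10 genes. Gpr26 and Nlrp10 are named only. The windows of Nrk, which was higher, and of Opn3, Clstn2 and Gdf11, which were lower, are shown 5′ to 3′ on the strand of the gene, with motif matches in capitals. They lie at chrX:138914180-138914479 (plus strand), chr1:175692583-175692882 (minus strand), chr9:98033118-98033417 (minus strand) and chr10:128891669-128891968 (minus strand).
Nrk: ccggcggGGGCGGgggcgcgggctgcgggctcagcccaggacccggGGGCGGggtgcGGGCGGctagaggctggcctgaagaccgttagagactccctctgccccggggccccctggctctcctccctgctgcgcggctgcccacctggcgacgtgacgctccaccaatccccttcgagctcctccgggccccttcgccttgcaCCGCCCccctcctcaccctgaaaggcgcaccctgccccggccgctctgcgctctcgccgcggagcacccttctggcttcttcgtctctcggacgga
Opn3: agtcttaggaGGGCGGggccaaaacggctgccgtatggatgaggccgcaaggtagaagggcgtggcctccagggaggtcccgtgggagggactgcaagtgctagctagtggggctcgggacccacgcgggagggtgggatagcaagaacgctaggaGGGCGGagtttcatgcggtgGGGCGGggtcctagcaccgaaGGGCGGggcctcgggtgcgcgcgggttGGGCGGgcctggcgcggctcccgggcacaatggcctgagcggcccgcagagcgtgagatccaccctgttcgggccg
Clstn2: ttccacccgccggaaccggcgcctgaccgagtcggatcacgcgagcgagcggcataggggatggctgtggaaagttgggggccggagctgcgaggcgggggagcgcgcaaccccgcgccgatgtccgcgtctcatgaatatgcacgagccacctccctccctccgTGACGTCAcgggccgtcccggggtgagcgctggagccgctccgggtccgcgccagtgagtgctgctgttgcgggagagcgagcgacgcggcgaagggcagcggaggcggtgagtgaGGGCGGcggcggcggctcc
Gdf11: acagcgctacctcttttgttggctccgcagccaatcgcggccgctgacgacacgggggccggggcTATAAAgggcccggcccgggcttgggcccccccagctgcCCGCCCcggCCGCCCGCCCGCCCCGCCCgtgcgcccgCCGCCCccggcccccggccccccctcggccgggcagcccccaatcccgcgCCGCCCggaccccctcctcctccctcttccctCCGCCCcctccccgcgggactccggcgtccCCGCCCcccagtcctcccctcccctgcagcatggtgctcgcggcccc

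Motifs were searched on both strands. The GC box GGGCGG was found in 6 of the 8 windows (AI593442, Nrk, Chst8, Clstn2, Gdf11 and Opn3) and in 35.7% of all 32851 windows. TATAAA was found in the window of Gdf11 and in 13.6% of all windows, and the cAMP response element TGACGTCA in the window of Clstn2 and in 1.79% of all windows. The AP-1 site TGAGTCA and the E-box CACGTG were in 0 of the 8 windows and in 5.20% and 7.15% of all windows. The GC box letters were thus present on both sides of the genotype difference, in windows of higher and of lower genes. The median GC content was 71.3% in the 8 windows and 52.7% in all windows, and the windows of Igfbp5 and Pcdh20 had none of the 5 motifs.

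The change with age was tested over both genotypes in the 12 cerebellum libraries, a contrast that does not use the genotype difference. By edgeR 469 of 16845 genes (2.78%) were called, 233 higher and 236 lower (1.4%) at 5 months. Of the 10 genes, 2 were called, Opn3 and Pcdh20, and both were lower at 5 months.

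Opn3 had a mean of 14.3 ± 1.82 CPM (SD, n = 3) in control mice at 2 months and 11.5 ± 1.60 CPM at 5 months, and of 6.00 ± 0.783 and 3.87 ± 0.832 CPM in heterozygous mice. It was lower at 5 months in both genotypes, by a log2 fold change of -0.48 ± 0.12 (SE), with an adjusted p of 0.0440 by edgeR. The log2 fold change stayed between -0.56 and -0.41 with any 1 mouse left out, while the call did not hold in all of these fits. The adjusted p was 0.0114 without control mouse 1, but 0.110 without mouse 2, 0.0564 without mouse 4, 0.0548 without mouse 5 and 0.139 without mouse 6. It was 0.101 without mouse 7, 0.0652 without mouse 9, 0.0928 without mouse 10, 0.0868 without mouse 11 and 0.139 without mouse 12, and 0.0509 with non-robust dispersions.

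Pcdh20 had a mean of 20.9 ± 1.09 CPM (SD, n = 3) in control mice at 2 months and 17.2 ± 0.978 CPM at 5 months, and of 12.4 ± 0.753 and 9.92 ± 0.289 CPM in heterozygous mice. All 3 control mice at 5 months were below all 3 at 2 months, and the same held for the heterozygous mice. The log2 fold change was -0.30 ± 0.07 (SE), with an adjusted p of 0.0251 by edgeR. With any 1 mouse left out the log2 fold change stayed between -0.33 and -0.28. The adjusted p was 0.00315 without control mouse 1, but 0.0831 without mouse 2, 0.0611 without mouse 6 and 0.0632 without mouse 7. It was 0.0681 without mouse 9, 0.0543 without mouse 10 and 0.0556 without mouse 12.

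For Gpr26 and Gdf11 the age difference missed the threshold, with log2 fold changes of -0.28 ± 0.08 (SE) and -0.31 ± 0.09 and adjusted p-values of 0.0676 and 0.0915 by edgeR. Both were called without control mouse 1 (adjusted p 0.0313 and 0.0386 by edgeR), and Gdf11 also without control mouse 3 (0.0385). Gpr26 was called with DESeq2 as well (0.0495) and with the length and GC offset in edgeR (0.0458). Gdf11 was called by edgeR with no filter on low counts (0.0363) and with the length and GC offset (0.0489). With 1 mouse left out in turn the adjusted p reached 0.174 for Gpr26 and 0.248 for Gdf11. The other 6 genes were not called, and their log2 fold changes ranged from -0.28 for Chst8 to 0.23 for Nlrp10. The number of called genes was 883 without control mouse 1, 209 without mouse 2, 287 without mouse 4 and 165 without mouse 6. It was 280, 287, 295, 221 and 221 without mice 7, 9, 10, 11 and 12. Beside this contrast, 6 of 7 oligodendrocyte markers were called lower at 5 months (median log2 fold change -0.29), Mbp among them. The list summed to 4900 to 5652 CPM in control and 4788 to 5056 CPM in heterozygous mice at 2 months, and to 4243 to 4465 and 3920 to 4040 CPM at 5 months. Also called lower were Neurod1 of the granule cell list and Eomes of the unipolar brush cell list. Their part in the age difference of Opn3 and Pcdh20 was not tested. Of the relatives, Igfbp7 (log2 fold change -0.41) and Pappa (-0.77) were called lower and Acvr2b (0.63) higher at 5 months. Rgs9 of the striatal list was called higher.

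The cortex and spinal cord did not serve to choose the genes, and here the genotype difference could be tested. In the cortex edgeR called 6 of 16744 genes (0.0358%), all higher, and in the spinal cord 19 of 17522 (0.108%), 18 higher and 1 lower. The cortex count was 134 without control mouse 1, 39 without control mouse 3 and 0 without heterozygous mouse 2 or 3. The spinal cord count was 643 without heterozygous mouse 1, 1 without control mouse 3 and 0 without control mouse 1 or 2 or heterozygous mouse 2 or 3. Of the 10 genes, edgeR called 0 of 8 tested in cortex and 0 of 9 tested in spinal cord. At an unadjusted p under 0.05 there were 1 of 8 and 3 of 9, against 11.5% and 6.48% of all tested genes, and DESeq2 called 0 in each tissue. Nlrp10 failed the filter on low counts in both tissues and Nrk in the cortex. The median log2 fold change of the tested genes was -0.006 in cortex and 0.17 in spinal cord, against 0.004 and 0.007 over all genes.

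**Figure D3:**
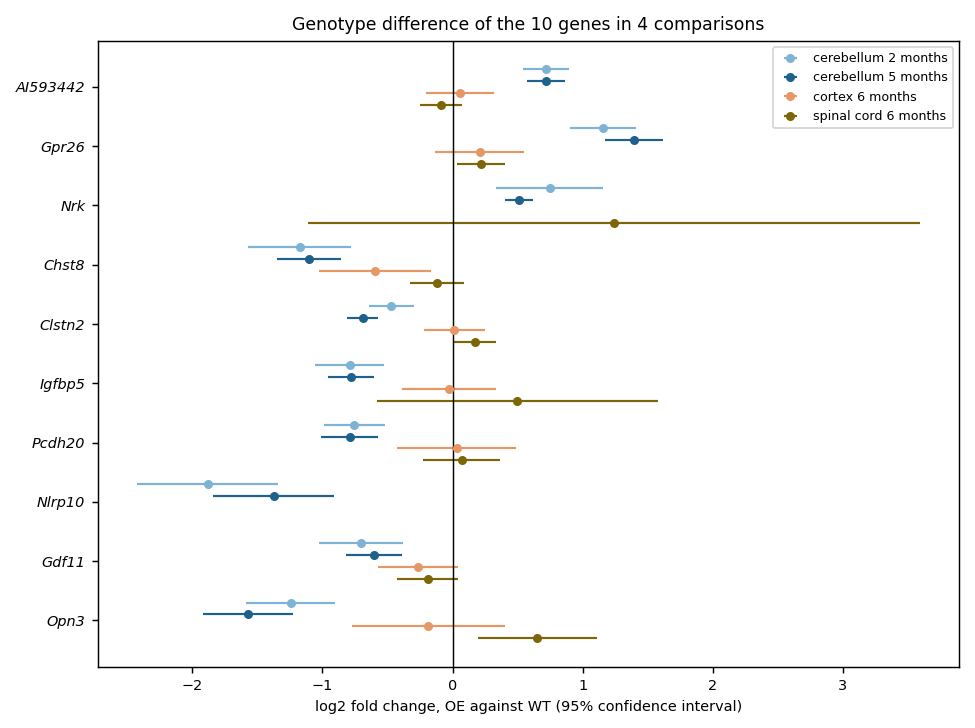
Log2 fold change of the 10 genes (y axis) in heterozygous (OE) against control (WT) mice, with the 95% confidence interval of the edgeR fit, in the cerebellum at 2 and 5 months and in the cortex and spinal cord at 6 months (n = 3 per group). The cerebellar points lie away from 0 by choice, and most cortex and spinal cord intervals include 0. Nlrp10 was tested in the cerebellum only, and Nrk was not tested in the cortex.

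The groups did not overlap for 2 of the 8 tested genes in the cortex, against 20.6% of all tested genes, and for 4 of the 9 tested in the spinal cord, against 11.4%. The cortex share is near that of all genes. In the cortex these were Chst8 and Gdf11, both lower in heterozygous mice as in the cerebellum. In the spinal cord Clstn2, Gpr26 and Opn3 were higher and Chst8 was lower in heterozygous mice.

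In the cortex Chst8 measured 12.4, 10.9 and 9.43 CPM in control mice and 6.69, 6.16 and 8.65 CPM in heterozygous mice. All heterozygous mice were below all control mice, and the log2 fold change was -0.59 ± 0.19 (SE, 95% confidence interval -1.02 to -0.16). The adjusted p was 0.362 by edgeR, and the log2 fold change was -0.48 ± 0.18 without control mouse 1. Spinal cord Chst8 measured 18.0, 19.9 and 18.9 CPM against 17.9, 16.8 and 17.2 CPM, a log2 fold change of -0.12 ± 0.09 (adjusted p 0.877 by edgeR).

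Gdf11 measured 17.8, 16.7 and 14.9 CPM in control cortex and 13.4, 13.4 and 13.9 CPM in heterozygous cortex. The groups did not overlap, and the log2 fold change was -0.27 ± 0.14 (SE, adjusted p 0.473 by edgeR) and -0.19 ± 0.13 without control mouse 1. In the spinal cord it measured 42.7, 40.2 and 41.8 CPM in control mice and 43.2, 32.8 and 32.7 CPM in heterozygous mice. Heterozygous mouse 1 was the high value, as in the sum of the oligodendrocyte markers among the heterozygous mice. The log2 fold change was -0.19 ± 0.11 with it (adjusted p 0.829 by edgeR) and -0.34 ± 0.08 without it (adjusted p 0.0294), and the adjusted p ranged from 0.0294 to 1.00 over the 6 fits that left out 1 library. No other of the 10 genes was called in a spinal cord or cortex fit that left out 1 library.

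Opn3 went the other way in the spinal cord than in the cerebellum. In the spinal cord it measured 2.01, 3.10 and 2.87 CPM in control mice and 4.39, 3.68 and 4.42 CPM in heterozygous mice, from 43 to 105 counts per library. All heterozygous mice were above all control mice, and the log2 fold change was 0.65 ± 0.21 (SE, 95% confidence interval 0.19 to 1.11). This did not pass the threshold (adjusted p 0.602 by edgeR, unadjusted p 0.00921). In the cortex it measured 6.15, 5.47 and 3.16 CPM against 4.58, 4.35 and 3.95 CPM, with overlap. Its log2 fold change in the cortex was -0.19 ± 0.26, and 0.02 ± 0.25 without control mouse 1.

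Clstn2 measured 59.3, 63.0 and 64.1 CPM in control spinal cord and 71.2, 72.2 and 64.9 CPM in heterozygous spinal cord. The groups were apart by a small margin, and the log2 fold change was 0.17 ± 0.07 (SE, adjusted p 0.756 by edgeR). In the cortex it measured 88.2, 104 and 92.7 CPM against 99.4, 96.5 and 88.7 CPM. The cortex values overlapped fully, with a log2 fold change of 0.01 ± 0.10 and a 95% confidence interval of -0.22 to 0.25. Without control mouse 1 it was -0.02 ± 0.08.

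Gpr26 measured 37.2, 32.6 and 38.3 CPM in control spinal cord and 39.9, 41.7 and 43.0 CPM in heterozygous spinal cord. The sign was that of the cerebellum. Gpr26 had a log2 fold change of 0.22 ± 0.09 (SE, 95% confidence interval 0.03 to 0.40). By edgeR its adjusted p was 0.710 and its unadjusted p 0.0259. In the cortex it measured 192, 311 and 254 CPM in control mice and 286, 291 and 288 CPM in heterozygous mice. Control mouse 1 was the lowest value there, and the log2 fold change was 0.21 ± 0.15 with it (adjusted p 0.597 by edgeR) and 0.06 ± 0.09 without it. The cortex value ranged from 0.06 to 0.38 with 1 library left out, and the lowest over all alternatives was 0.008.

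Igfbp5 measured 111, 142 and 101 CPM in control spinal cord and 87.5, 200 and 208 CPM in heterozygous spinal cord. Heterozygous mouse 1 was below all control mice and the other 2 were above them, and the log2 fold change was 0.50 ± 0.40 (SE, adjusted p 0.890 by edgeR). It was 0.80 ± 0.15 without heterozygous mouse 1 and ranged from 0.30 to 0.80 with 1 library left out. In the cortex the values of 138, 176 and 226 CPM in control mice spanned the 190, 172 and 164 CPM of heterozygous mice, with a log2 fold change of -0.03 ± 0.16, and -0.17 ± 0.11 without control mouse 1.

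AI593442 and Pcdh20 showed no difference beyond the spread in either tissue. AI593442 had log2 fold changes of 0.06 ± 0.12 (SE) for cortex and -0.09 ± 0.07 for spinal cord. Its 95% confidence intervals ran from -0.21 to 0.32 and from -0.25 to 0.07. Pcdh20 had log2 fold changes of 0.03 ± 0.20 and 0.07 ± 0.14, with 95% confidence intervals of -0.42 to 0.49 and -0.23 to 0.37. Without cortex control mouse 1 the cortex values were 0.08 ± 0.10 for AI593442 and 0.10 ± 0.21 for Pcdh20. Whether these differ from the cerebellar values was not tested.

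Nrk and Nlrp10 were nearly absent outside the cerebellum. Nrk was counted 0, 2 and 4 times in control cortex and 3, 11 and 0 times in heterozygous cortex. Spinal cord values were 0.983, 0.286 and 0.397 CPM in control mice and 0.171, 0.882 and 2.78 CPM in heterozygous mice, against 63.5 to 107 CPM as group means in the cerebellum. The groups overlapped, and the log2 fold change in the spinal cord was 1.24 ± 0.95 (SE, adjusted p 0.879 by edgeR), or 0.04 to 1.92 with 1 library left out. Nlrp10 was counted 0 to 3 times in each of the 12 cortex and spinal cord libraries. At this depth no genotype difference was detectable for Nlrp10 in either tissue or for Nrk in the cortex.

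**Figure D4:**
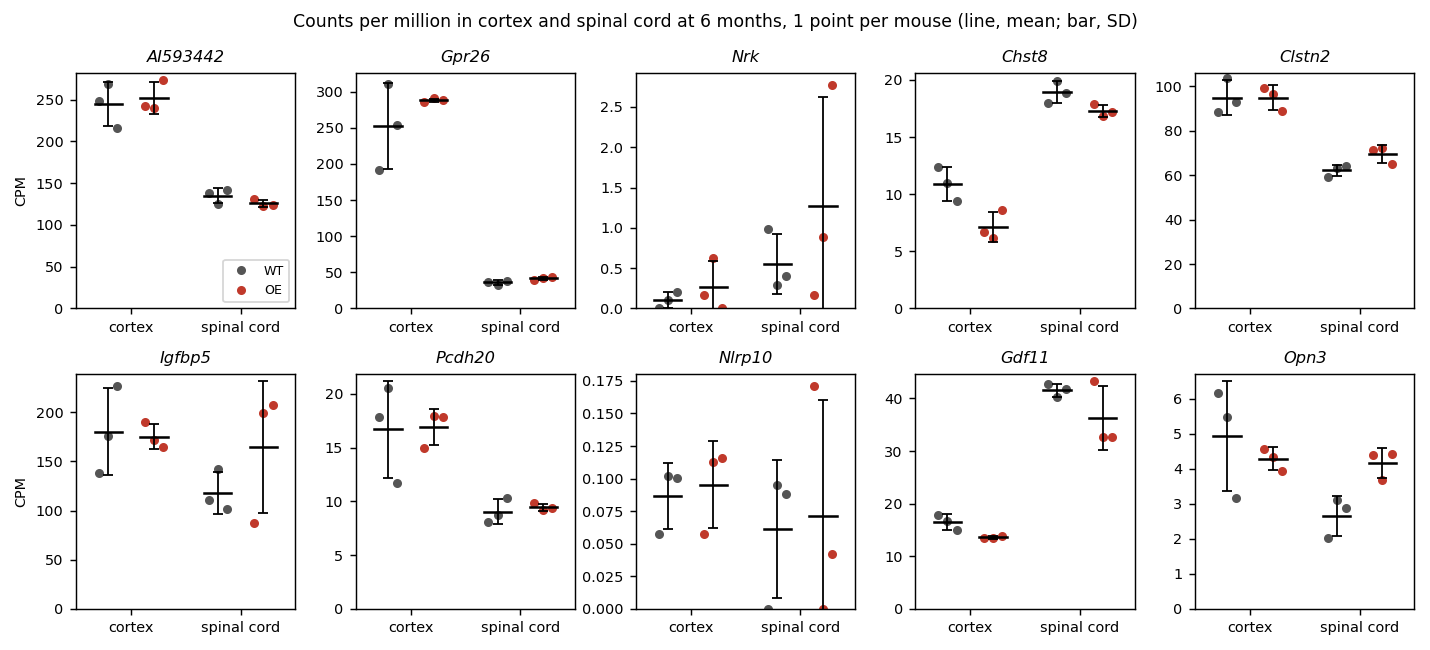
CPM (y axis, from 0) of the 10 genes in the cortex and spinal cord of control (WT, grey) and heterozygous (OE, red) mice at 6 months, 1 point per mouse, with the mean (line) and SD (bar) of 3 mice. Most groups overlap, and Opn3 in the spinal cord and Chst8 in the cortex are apart in opposite directions.

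The levels themselves differed strongly between tissues, on scales normalised separately for the cerebellum. Gpr26 was at 252 ± 59.4 CPM (SD, n = 3) in control cortex, 36.0 ± 3.04 in control spinal cord, 11.6 ± 0.759 in control cerebellum at 2 months and 8.75 ± 0.752 at 5 months. AI593442 followed the same order, with 245 ± 26.1 CPM in cortex, 135 ± 9.02 in spinal cord and 44.4 ± 1.67 and 41.2 ± 3.29 in cerebellum, the last 2 within their spread. Both genes were thus lowest in the cerebellum among the control tissues, and the heterozygous cerebellum stayed below the control spinal cord.

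The lower genes had no common order of tissues. Igfbp5 was highest in control cerebellum, at 303 ± 24.0 and 274 ± 21.8 CPM (SD, n = 3) at the 2 ages, within their spread, against 180 ± 44.3 in cortex and 118 ± 21.6 in spinal cord. Gdf11 was highest in spinal cord at 41.6 ± 1.26 CPM, then in cerebellum at 28.6 ± 4.23 and 22.3 ± 1.60, and lowest in cortex at 16.5 ± 1.48. Clstn2 was at 94.8 ± 7.88 CPM in cortex and 87.0 ± 4.79 in the 5-month cerebellum, which overlapped, and at 77.2 ± 2.45 in the 2-month cerebellum and 62.1 ± 2.54 in spinal cord. Chst8 in the 2-month cerebellum (18.3 ± 4.42 CPM) was within the spread of spinal cord (18.9 ± 0.964) and of the 5-month cerebellum (14.7 ± 0.616), and cortex was lowest at 10.9 ± 1.47. Pcdh20 was at 20.9 ± 1.09 CPM in the 2-month and 17.2 ± 0.978 in the 5-month cerebellum, at 16.7 ± 4.50 in cortex, which overlapped with both, and at 9.05 ± 1.15 in spinal cord. Opn3 was at 14.3 ± 1.82 and 11.5 ± 1.60 CPM in cerebellum at the 2 ages, then at 4.93 ± 1.57 in cortex and 2.66 ± 0.573 in spinal cord.

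Whether the genotype difference differed between spinal cord and cortex was tested as an interaction. EdgeR called 3 of 18241 genes (0.0164%) and 0 of the 8 genes that passed the filter in both tissues. Nrk, of 3 to 66 counts in the spinal cord, passed the joint filter but not that of the cortex. Its interaction of -0.07 ± 1.11 (log2, SE) carries no reading, and Nrk is left out of the 8. The count of called genes was 18, 11 and 31 without cortex control mice 1, 2 and 3, and 1 and 0 without cortex heterozygous mice 2 and 3. It was 1, 0 and 0 without spinal cord control mice 1, 2 and 3, and 16 and 0 without spinal cord heterozygous mice 1 and 2. In these fits 0 of the 8 genes were called. At an unadjusted p under 0.05 there were 2 of the 8, Opn3 and Chst8, against 6.21% of all tested genes, and DESeq2 called 0 of the 8. The interaction was 0.84 ± 0.35 (log2, SE) for Opn3, with an adjusted p of 0.752 by edgeR and of 0.233 to 0.985 with 1 library left out. For Chst8 it was 0.48 ± 0.20, with an adjusted p of 0.757 by edgeR. The interaction is therefore not shown for any of the 8 genes. The fit treated the 12 libraries as independent, and whether a cortex and a spinal cord library came from the same mouse is not given.

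Markers of neighbouring tissue and of glia differed between cortex libraries, and edgeR called 0 of them. Of all tested genes in the cortex 11.5% had an unadjusted p under 0.05. The 6 striatal markers, led by Ppp1r1b in RPKM, summed to 231, 233 and 504 CPM in control mice and 1045, 636 and 651 CPM in heterozygous mice, with no overlap. Their median log2 fold change was 1.81, with 5 of 6 at an unadjusted p under 0.05 and 0 called by edgeR. The 5 choroid plexus markers, led by Ttr in RPKM, summed to 98.7, 25.2 and 1451 CPM in control mice and 20.2, 63.3 and 30.8 CPM in heterozygous mice, with overlap and control mouse 3 far above the rest. Of the spinal motor neuron and cord list, 4 genes passed the filter in the cortex, 4 of 4 were at an unadjusted p under 0.05, and 0 were called, with a median of 1.73. The list summed to only 3.54 ± 1.92 CPM (SD, n = 3) in control and 11.4 ± 3.17 CPM in heterozygous cortex, with Slc5a7 highest in CPM. Its name does not place spinal motor neurons in the cortex. The microglia list, led by C1qa in RPKM, summed to 363, 309 and 328 CPM in control cortex and 282, 275 and 265 CPM in heterozygous cortex, with 10 of 10 genes lower and 0 called (4 at an unadjusted p under 0.05). Astrocyte sums were 3298 to 3836 CPM in control and 3063 to 3198 CPM in heterozygous cortex, and fibroblast sums 36.4 to 41.7 and 25.8 to 34.5 CPM, with 2 of 9 and 1 of 4 genes at an unadjusted p under 0.05. The part of these markers in the cortex values of the 10 genes was not tested.

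In the spinal cord C1qa, C1qb, Trem2 and Tyrobp of 10 microglia markers were called higher and 0 lower. These calls did not hold without control mouse 1 or 2 or heterozygous mouse 2 or 3, where 0 genes were called. The same was true with non-robust dispersions and with all 12 libraries in one fit. The list, led by C1qa in RPKM, summed to 273, 271 and 278 CPM in control mice and 336, 394 and 382 CPM in heterozygous mice, without overlap. Its median log2 fold change was 0.68 against 0.007 over all genes. The oligodendrocyte list, led by Mbp in RPKM, was lower in 7 of 7 genes, with 3 at an unadjusted p under 0.05 and 0 called by edgeR. It summed to 24280, 23480 and 23410 CPM in control mice and 22900, 18680 and 18750 CPM in heterozygous mice, without overlap. The 4 fibroblast markers summed to 156, 211 and 156 CPM in control mice and 72.7, 428 and 273 CPM in heterozygous mice. Heterozygous mouse 1 was lowest and the other 2 highest there, the order also seen for Igfbp5. In the oligodendrocyte sums heterozygous mouse 1 was highest of its group, as for Gdf11. The spinal motor neuron and cord list also had heterozygous mouse 1 highest. It summed to 348, 348 and 337 CPM in control mice and 364, 309 and 304 CPM in heterozygous mice, with 0 of 8 genes called. The part of these lists in the spinal cord values of the 10 genes was not tested. EdgeR called 0 relatives of the 8 family and pathway lists in cortex or spinal cord. In the insulin-like growth factor list 4 of 14 and 3 of 15 had an unadjusted p under 0.05, and in the GDF11 and activin list 3 of 18 and 2 of 19, in cortex and spinal cord. In the calsyntenins there were 1 of 2 and 0 of 2, in the delta protocadherins 1 of 9 and 0 of 9, and in the sulfation list 1 of 7 and 1 of 8. In the opsins there were 0 of 1 and 1 of 2, in the inflammasome list 1 of 10 and 1 of 12, and in the kinases 0 of 3 and 0 of 3.

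The sign seen in the cerebellum was found for 6 of 8 tested genes in the cortex, with or without control mouse 1, and for 4 of 9 in the spinal cord. The 6 cortex genes were not the same, since without that mouse Clstn2 gained the sign (-0.02) and Opn3 lost it (0.02). For the 29 other genes that DESeq2 called in the cerebellum at both ages, it was found for 18 of 28 tested in the cortex and 13 of 28 tested in the spinal cord. EdgeR called 0 of those 28 in either tissue. Without cortex control mouse 1 the cerebellar sign was found for 19 of 28 in the cortex, and 2 of the 28 were called.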

How the data were processed

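The authors extracted total RNA with TRIzol, prepared NEBNext Ultra libraries and sequenced them on an Illumina instrument. Per the submitters' processing notes, reads were processed with Trimmomatic 0.30, HISAT2 2.0.1 and HTSeq 0.6.1 on mm10. What the authors deposited is the unnormalised read count of every gene, as 2 tables of 12 libraries. The strand setting and overlap mode of the counting are not given in the sources used here, so counts of overlapping genes are uncertain.

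Rows were taken by gene symbol, each of the 10 symbols having 1 identifier. Positions and exon lengths came from GENCODE M21 (GRCm38), which held 45143 of 46078 identifiers (98.0%). Each comparison was fitted on its own libraries in edgeR 4.0.16 under R 4.3.3 (TMM, filterByExpr with a minimum count of 10 and a minimum total count of 15, robust quasi-likelihood F test). P-values were adjusted by Benjamini-Hochberg over all tested genes. CPM used TMM over the 12 libraries of a table, and library totals give the depth.

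All 10 genes are named. Relatives are named if called, or if of the highest RPKM in their list at 5 months (in the opsins that is Opn3 itself), and for each gene the closest of 2 computed by Pearson's r. Other named genes lie outside this rule and were picked with their values in view. The values of 1 marker gene are not reported here. The genes and the 21 gene lists were chosen with earlier results of these data known.

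Alternatives were DESeq2 1.42.0, its size factors, no filter, non-robust dispersions, a length and GC offset (loess span 0.4), all 12 libraries of a table in one fit, a replicate block, and leaving out each library. The fits were tested on simulated data. Tables and plots used Python 3.11.15, pandas 2.3.3, numpy 2.4.6, scipy 1.17.1 and matplotlib 3.10.9.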

Additional observations from a re-analysis of the deposited data

Results flagged for a closer look

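For Opn3 every heterozygous mouse was below every control mouse in the cerebellum and above every control mouse in the spinal cord. The log2 fold change was -1.24 in the cerebellum at 2 months, -1.57 at 5 months and 0.65 in the spinal cord at 6 months. The same opposite directions held for Clstn2, with -0.47 at 2 months and -0.69 at 5 months in the cerebellum and 0.17 in the spinal cord. The difference between cerebellum and spinal cord was not tested for either gene, since the cerebellar contrasts chose the genes and the tables were normalised separately. Neither gene passed the threshold in the spinal cord, where edgeR's adjusted p was 0.602 for Opn3 and 0.756 for Clstn2. The counts of Opn3 are uncertain in all tissues, since it shares exon sequence with Chml on the same strand. Its spinal cord values rest on 43 to 105 counts per library.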

How the results depend on the processing

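The count of called genes moved with the processing in every comparison, and the cause was not tested. In the cerebellum at 2 months it was 0 in edgeR, 44 with DESeq2, 26 with no filter on low counts and 47 with all 12 libraries in one fit, and 0 to 362 with 1 library left out. At 5 months the split into higher and lower was 391 and 448 in edgeR, 262 and 404 with DESeq2, 591 and 568 with no filter, and 305 and 532 with the length and GC offset. The count was 225 with all 12 libraries in one fit, where 9 of the 10 genes were called, and 433 to 1022 with 1 library left out. In the cortex it was 144 with DESeq2, 108 with no filter, 11 with the length and GC offset, 104 with all 12 libraries, and 0 to 134 with 1 library left out. In the spinal cord it was 73 with DESeq2, 244 with no filter, 0 with non-robust dispersions, 0 with all 12 libraries, and 0 to 643 with 1 library left out. For age it was 165 to 883 with 1 library left out. For the interaction it was 51 with DESeq2, 20 with no filter, 9 with the length and GC offset, and 0 to 31 with 1 library left out.

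Signs of small values in single genes turned. In the cortex AI593442 was -0.08, Clstn2 -0.063 and Pcdh20 -0.084 with the length and GC offset, and Clstn2 was -0.002 with no filter. With 1 cortex library left out, AI593442 ranged from -0.03 to 0.118, Clstn2 from -0.021 to 0.073, Igfbp5 from -0.172 to 0.166, Pcdh20 from -0.175 to 0.195 and Opn3 from -0.432 to 0.02. Pcdh20 ranged from -0.003 to 0.175 in the spinal cord, and Nrk from -0.041 to 0.118 for age. For the interaction, Gpr26 ranged from -0.153 to 0.189, Pcdh20 from -0.124 to 0.254 and Gdf11 from -0.078 to 0.157. Nrk, whose interaction carries no reading, ranged from -1.297 to 1.498. The cause was not tested. In the cerebellar genotype contrasts the 10 genes kept their sign under every alternative run, from the DESeq2 fit to each left-out library.

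Cortex and spinal cord labels repeat the numbers 1 to 3 in both genotypes. With the number as a replicate block the count was 8 in the cortex, 44 in the spinal cord and 0 for the interaction, where Gpr26 was -0.025. After removal of genotype means, libraries with the same number correlated at -0.154, -0.0367 and 0.0353 in the cortex and -0.0374, 0.164 and -0.045 in the spinal cord, so no pairing by number was seen. Between cortex and spinal cord the same numbers correlated at -0.127, -0.0305 and -0.0182 in control mice and 0.06, 0.052 and 0.0531 in heterozygous mice. Different numbers correlated at -0.101 to 0.125 in control mice and -0.0642 to 0.013 in heterozygous mice. The same numbers were thus highest in heterozygous mice but not in control mice. These values do not settle whether both tissues came from the same mice. Cerebellum genotypes share no numbers.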
